A study of Cucumis sativus with 4 samples.

Results

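Plants recover nitrogen from their own molecules by taking apart purines, arginine and proline. Purine bases are oxidised to urate by xanthine dehydrogenase, urate is oxidised in peroxisomes by uricase, and the product is turned into the ureides allantoin and allantoate, which allantoinase and allantoate amidohydrolase open so that ammonium is released. Arginase splits arginine into ornithine and urea, urease splits urea into ammonium and carbon dioxide, and the plasma membrane carrier DUR3 takes up urea. These roles are known best from Arabidopsis and are given here for the homologues that the deposited table assigns to cucumber genes.

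The genes described are those whose Arabidopsis homologue ID in the table is 1 of 10 IDs for these steps. Of the 10 IDs, 8 were found, on 9 of the 18665 rows. The ureide permease ID was carried by 2 rows and each of the others by 1. No row carried AT4G08870, of an arginase, or AT3G30775, of a proline dehydrogenase, so the only arginase row is that of AT4G08900 and proline breakdown is represented by the homologue of another proline dehydrogenase, given with the related genes. The uricase and arginase rows have no symbol in the table. The table names a scaffold for each gene and no position, so no coordinates are printed.

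Cucumber (Cucumis sativus) roots and leaves were harvested 28 days after sowing in sand, under 14 h of light a day. Control plants received a solution with 5 mM nitrate, and low nitrogen plants one with 1 mM nitrogen. RNA was sequenced in 4 libraries, 1 for each organ on each solution, so differences could not be set against a spread between replicates and carry neither p-values nor standard errors. By the recipes in the labels the solutions also differed in sulfate (0.25 mM in control and 1.45 mM in low nitrogen) and chloride (0.2 and 1.8 mM), and effects of these ions cannot be told apart from those of nitrate. Among the trace elements named for both solutions is molybdenum, the metal of xanthine dehydrogenase, and not nickel, the metal of urease. No label names a cultivar or says how many plants went into a library.

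Levels are RPKM, reads per kilobase of gene and per M reads (M for mega), so levels of different genes are set side by side per length. The length the authors divided by may not be the deposited one, since the deposited length gave whole reads in every library for 2316 of 18665 rows, and ratios between genes carry that doubt while ratios between libraries do not. The depths recovered from the steps between values were 4.23 and 3.98 M reads in the control and low nitrogen root libraries and 2.93 and 2.74 M reads in the leaf libraries. Organ labels fitted their markers. The 7 rows of 5 leaf photosynthesis homologues summed to 72.6 and 51.02 RPKM in control root and low nitrogen root and to 27659 and 12440 RPKM in control leaf and low nitrogen leaf. The 15 rows of 8 root homologues (endodermis, stele, root hair) summed to 313 and 292 RPKM in the root libraries and to 11.9 and 17.05 in the leaf libraries. The 8 rows of 2 phloem homologues summed to 703 and 551 RPKM in root, 492 in the control leaf library and 86.1 in the low nitrogen one. These sums rest almost wholly on PP2-A1 rows, with SUT1 at 0.49 and 0.26 RPKM in the leaf libraries. The PP2-A1 row highest in control leaf was at 266 RPKM there and 28.0 in low nitrogen leaf. In control and low nitrogen root it was at 48.0 and 14.4. Whether the tissue sampled as leaf differed, and the part of this in the values below, was not tested. In such bulk samples fewer cells of a type and less RNA per cell cannot be told apart.

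**Figure D1:**
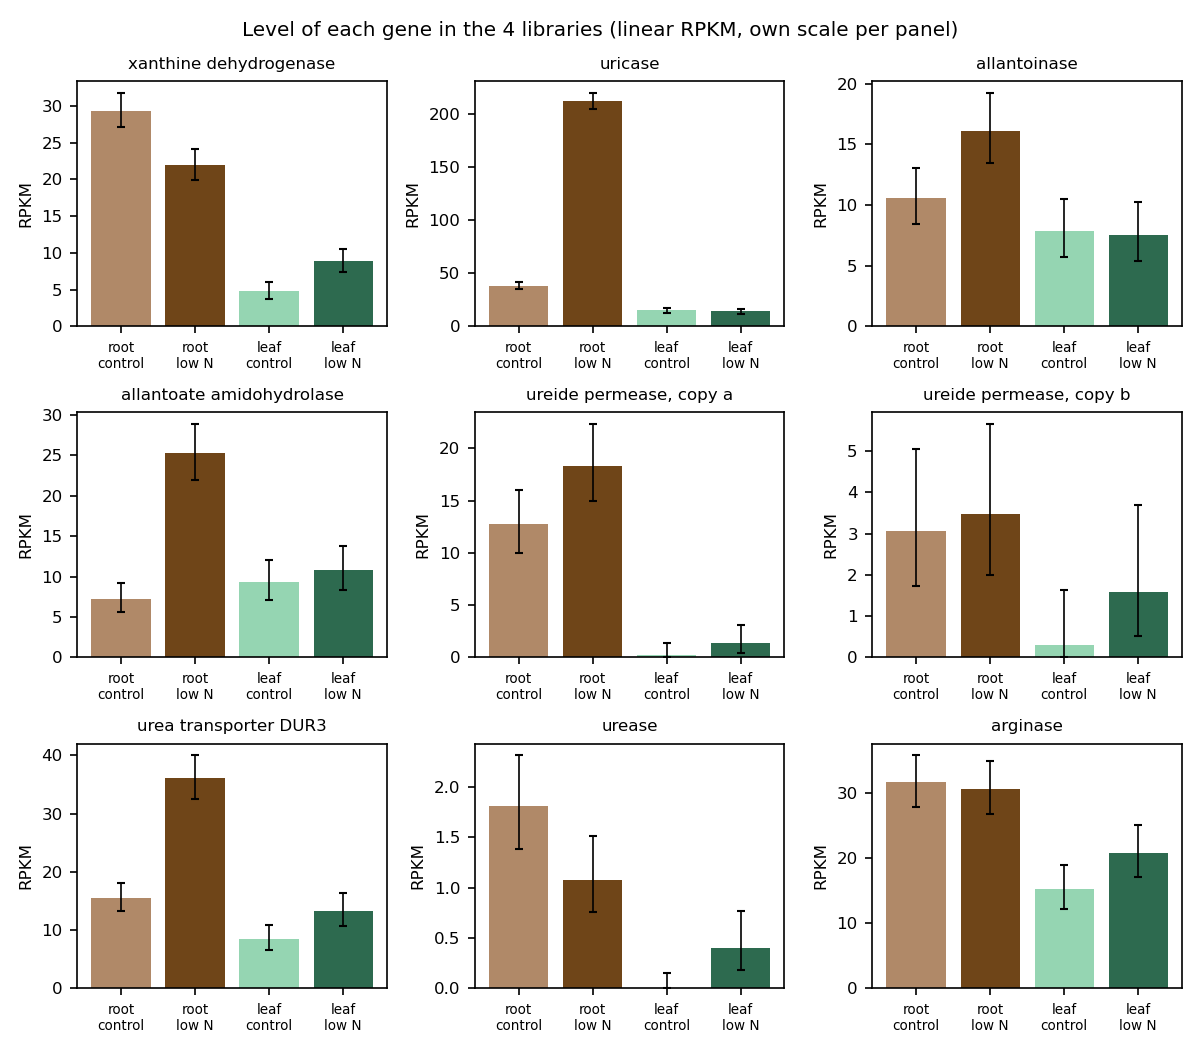
RPKM of the 9 genes in the 4 libraries, 1 panel per gene with its own linear axis from 0. Bars are single libraries and whiskers are 95% counting intervals from recovered reads, not replicate error. Uricase at 212 RPKM in low nitrogen root stands above its 3 other values, and the ureide permease and urease bars are low in leaf.

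The first question was how roots on little nitrogen differed from control roots. Uricase, allantoate amidohydrolase and DUR3 were higher in low nitrogen root by the threshold used, and the other 6 genes did not pass it in either direction. Differences are log2 ratios of RPKM with a pseudocount of 1 RPKM added to both values, and a gene counts as higher or lower at a log2 ratio of at least 1 in size, among genes whose mean over the compared libraries reached 1 RPKM. In root 3 of the 9 genes were higher and 0 lower. Over all 14532 genes tested in root the share called was 10.5% (6.17% higher and 4.34% lower). The median log2 ratio of the 9 genes was 0.49, against 0.04 over all genes tested, and the 9 ratios ran from -0.43 to 2.44. With so few genes, chosen with earlier results of these data known, these counts describe the set and no more.

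Xanthine dehydrogenase, XDH1 (AT4G34890, scaffold01079), the molybdenum enzyme that makes urate, was at 29.4 RPKM in control root, 21.97 in low nitrogen root, 4.74 in the control leaf library and 8.87 in the low nitrogen one. Both root libraries were above both leaf libraries. Low nitrogen root was 1.34-fold lower than control root, with a counting interval of 1.18 to 1.51, and the log2 ratio of -0.40 did not reach the threshold. In leaf the direction was the opposite, with low nitrogen 1.87-fold higher (counting interval 1.39 to 2.54, log2 ratio 0.78), also under the threshold. Set against the median of all genes in leaf, the log2 ratio was 0.45.

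Uricase (AT2G26230, scaffold02653), the peroxisomal enzyme of the next step, was at 38.3 RPKM in control root, 212 in low nitrogen root, 14.9 in the control leaf library and 14.1 in the low nitrogen one. Low nitrogen root stood far above the other libraries, and the leaf libraries were close to each other. The root ratio was 5.54, with a counting interval of 5.08 to 6.05 and a log2 ratio of 2.44, at rank 74 from the highest of the 14532 genes tested. The level exceeded that of 97.3% of all rows in low nitrogen root, against 83.9% in control root. In leaf the log2 ratio was -0.08, and the counting interval of the ratio, 0.749 to 1.18, included 1. Relative to the median of all genes in leaf the log2 ratio was -0.41.

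These neighbouring steps therefore differed in balance between the libraries. Uricase was at 1.30 times the RPKM of xanthine dehydrogenase in control root and at 9.65 times in low nitrogen root, while in leaf the ratio of levels was 3.15 in control and 1.59 in low nitrogen. Of the summed RPKM of the 9 genes, uricase made up 25.5% in control root, 58.1% in low nitrogen root, 24.4% in the control leaf library and 17.9% in the low nitrogen one. The sum itself was 150.2 RPKM in control root, 365 in low nitrogen root, 61.2 in the control leaf library and 78.7 in the low nitrogen one.

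Allantoinase, ATALN (AT4G04955, scaffold01017), which opens the ring of allantoin, was at 10.6 RPKM in control root, 16.1 in low nitrogen root, 7.87 in the control leaf library and 7.50 in the low nitrogen one. Its 4 values lay within 2.15-fold of each other. The root ratio was 1.53 (counting interval 1.15 to 2.03, log2 ratio 0.57), under the threshold, and the leaf log2 ratio was -0.06.

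Allantoate amidohydrolase, ATAAH (AT4G20070, scaffold01043), which releases ammonium from allantoate, was at 7.21 RPKM in control root, 25.3 in low nitrogen root, 9.28 in the control leaf library and 10.8 in the low nitrogen one. Low nitrogen root was again the high library, and control root was the lowest of the 4. The root ratio was 3.50, with a counting interval of 2.64 to 4.70 and a log2 ratio of 1.68, at rank 212 of the genes tested in root. The leaf ratio was 1.16, with a counting interval of 0.802 to 1.69. The level of allantoate amidohydrolase was 0.683 times that of allantoinase in control root and 1.57 times in low nitrogen root. Along the route from urate the root ratios were thus unequal, with uricase and allantoate amidohydrolase past the threshold and allantoinase, between them, under it.

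The ureide permease ID AT2G03530 (UPS2), of plasma membrane carriers that move allantoin and related ring compounds in Arabidopsis, was carried by a pair of rows with consecutive IDs on scaffold02653, the scaffold that also holds the uricase row. The copy with the higher root level, called copy a, was at 12.8 RPKM in control root, 18.4 in low nitrogen root, 0.25 in the control leaf library and 1.33 in the low nitrogen one. The other, copy b, was at 3.07, 3.48, 0.30 and 1.58 RPKM in the same order. Both copies were low in leaf, where the recovered counts were 1 read in control and 5 in low nitrogen for each copy, and the sources used here do not say how reads matching both copies were counted.

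Copy a made up 80.6% of the pair's RPKM in the control root library and 84.1% in the low nitrogen one, but 45.5% and 45.7% in the leaf libraries. The root ratios were 1.44 (counting interval 1.05 to 1.97) for copy a and 1.13 (0.525 to 2.46) for copy b, both under the threshold. In leaf both copies were under the minimum mean and were not tested. Their leaf log2 ratios of 0.90 and 0.99 lay just under the threshold, and the counting interval of each ratio, 0.600 to 253, included 1. Summed over both copies the leaf levels were 0.55 RPKM (2 reads) on the control solution and 2.91 RPKM (10 reads) on low nitrogen, a ratio of 5.29 with a counting interval of 1.14 to 50.3. The log2 ratio of the sum was 1.33, but its mean reached 1 RPKM through the low nitrogen value alone, so it is not counted as a call.

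DUR3 (AT5G45380, scaffold03080), the high-affinity urea carrier driven by protons, was at 15.5 RPKM in control root, 36.1 in low nitrogen root, 8.52 in the control leaf library and 13.3 in the low nitrogen one. The low nitrogen library was the higher one in both organs. The root ratio was 2.33, with a counting interval of 1.94 to 2.82 and a log2 ratio of 1.17, at rank 611 of the genes tested. In leaf the ratio was 1.57 (counting interval 1.12 to 2.19), and its log2 ratio of 0.59 did not reach the threshold. Set against the median of all genes in leaf, the log2 ratio was 0.26. No urea is named among the salts of either solution.

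Urease, URE (AT1G67550, scaffold00789), the nickel enzyme that splits urea, was listed last of the 9 genes in every library. Its counting interval lay below that of the next gene in low nitrogen root and overlapped it in the other 3 libraries. It was at 1.81 RPKM in control root, 1.08 in low nitrogen root, 0.40 in low nitrogen leaf and was listed at 0 in control leaf. For a library at 0, 3 reads would be 0.126 RPKM at the shortest length that gave whole reads, and a longer one would put that limit lower. Low nitrogen root was 1.68-fold lower (counting interval 1.08 to 2.6, log2 ratio -0.43), under the threshold, and in leaf the gene was under the minimum mean. DUR3 was at 8.56 times the RPKM of urease in control root and at 33.5 times in low nitrogen root. Whole reads were recovered at 8121 bases for urease and at 2520 for DUR3, so the lengths divided by may be unlike. The recovered reads in control and low nitrogen root were 62 and 35 for urease and 165 and 362 for DUR3. The place of urease among the genes and its ratios to them carry that doubt.

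Arginase (AT4G08900, scaffold03611), the mitochondrial enzyme in Arabidopsis that yields ornithine and urea, was at 31.6 RPKM in control root, 30.6 in low nitrogen root, 15.3 in the control leaf library and 20.8 in the low nitrogen one. The root libraries were level with each other, with a ratio of 0.967 and a counting interval of 0.806 to 1.16. In leaf, low nitrogen was 1.36-fold higher (counting interval 1.02 to 1.83, log2 ratio 0.42), which is under the threshold. Relative to the median of all genes in leaf its log2 ratio was 0.09.

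**Figure D2:**
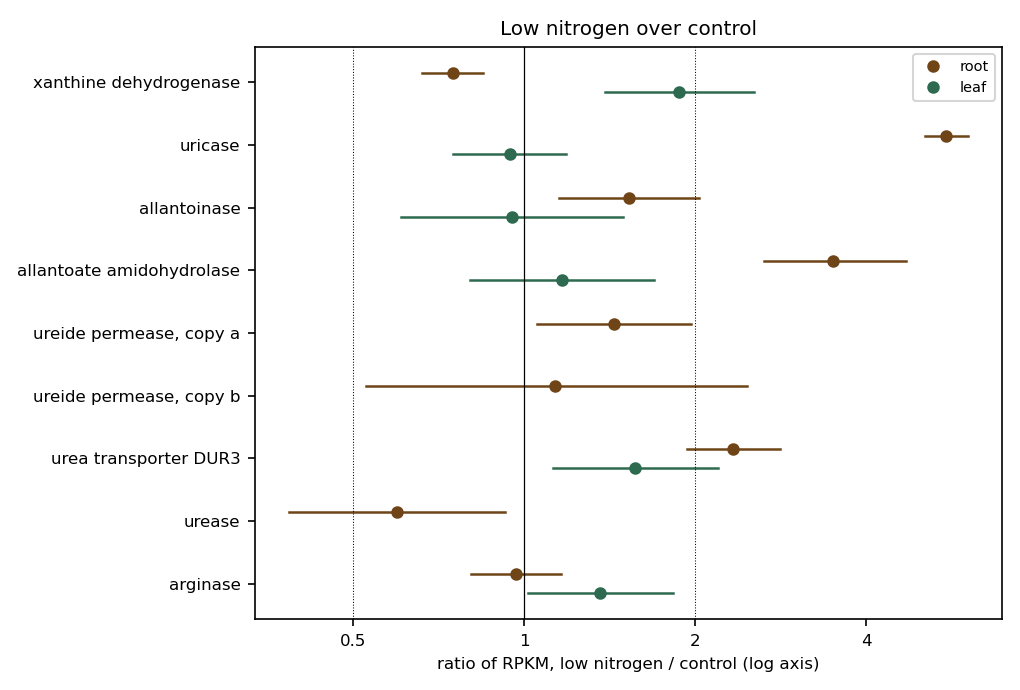
Ratio of RPKM in low nitrogen over control for each gene, on a log axis, in root (brown) and leaf (green). Points are ratios of single libraries, bars are 95% counting intervals, and dotted lines mark 0.5 and 2. In root uricase (5.54), allantoate amidohydrolase (3.50) and DUR3 (2.33) lie right of 2, and no leaf point does. Leaf points of the ureide permeases and urease are not drawn because they were under the minimum mean.

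The second question was what low nitrogen leaves showed beside control leaves. No single row of these genes passed the threshold there. In leaf 0 of the 6 genes tested were higher and 0 lower, where 17.2% of all 13384 genes tested were called (13.6% higher and 3.59% lower). The 6 log2 ratios ran from -0.08 for uricase to 0.78 for xanthine dehydrogenase. Their median was 0.31, against 0.33 over all genes tested, so 3 of the 6 lay above the median of all genes and 3 below. That shift of all genes depends on scaling. With median ratio scaling of the libraries the all-gene median in leaf was -0.05, 39.7% of the called genes were higher against 79.1% as deposited, and the counts of these genes called remained 0 and 0. The photosynthesis and phloem marker sums given above also differed between the leaf libraries, and their part in these ratios was not tested.

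Root and leaf were compared directly by the leaf log2 ratio minus the root log2 ratio, a difference with no test because each group is 1 library. Of the 8 genes whose mean over the 4 libraries reached 1 RPKM, 2 had a lower ratio in leaf by at least 1 and 1 a higher one, where the shares over all 14975 genes were 7.03% and 16.5%, or 23.6% in either direction. The differences were -2.52 for uricase and -1.48 for allantoate amidohydrolase. For xanthine dehydrogenase the difference was 1.18, or 0.91 after the median of all genes was subtracted, and it was under 1 with median ratio scaling. Allantoinase was at -0.63. Both ureide permease copies reached the mean through root, with 1 and 5 leaf reads each, and without them the counts were 2 lower and 1 higher of 6.

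**Figure D3:**
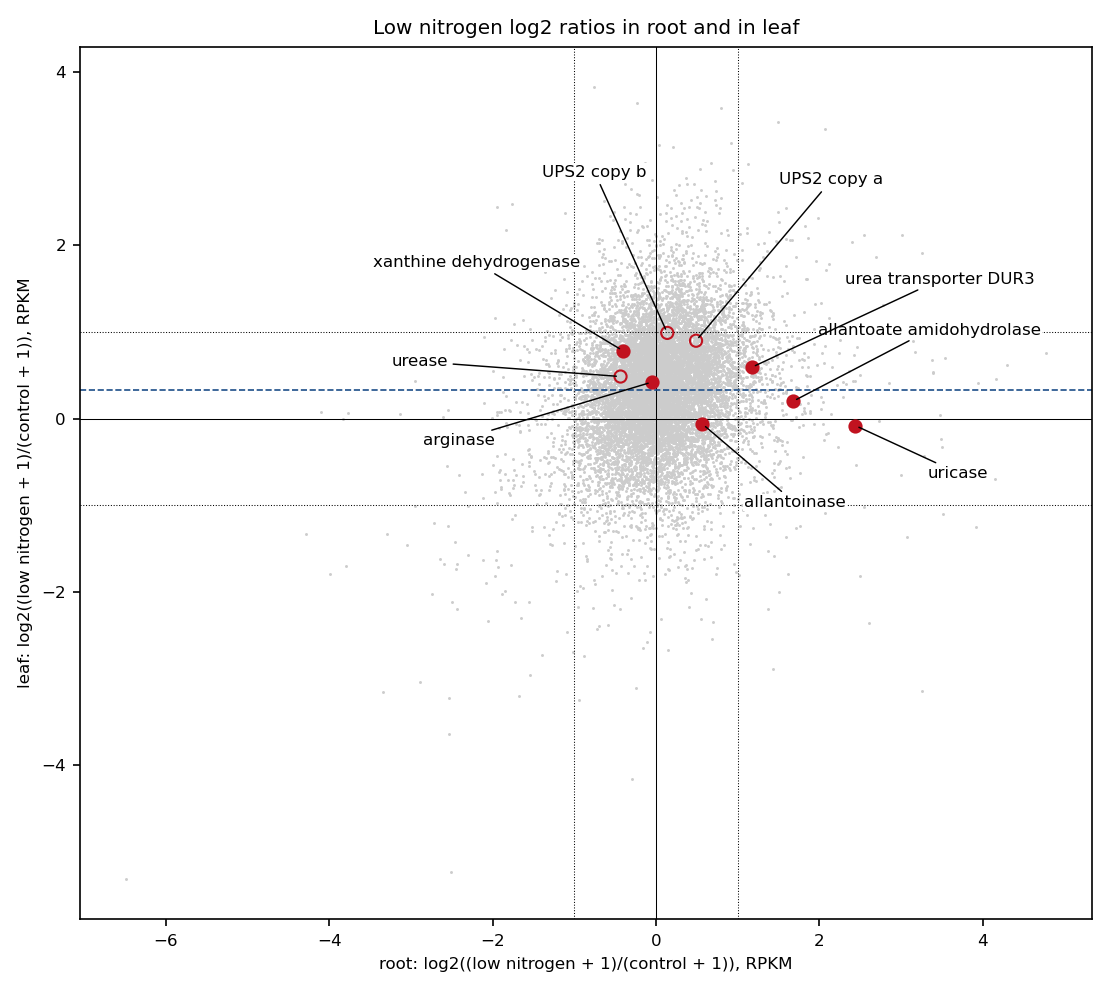
Low nitrogen log2 ratios in root (horizontal) and leaf (vertical), with a pseudocount of 1 RPKM. Grey points are all genes tested in both organs, filled red points the 6 genes described that were tested in both, and open red points the 3 under the minimum mean in leaf. Dotted lines mark log2 ratios of -1 and 1, and the dashed line the leaf median of all genes, 0.33. Uricase, allantoate amidohydrolase and DUR3 lie right of 1 in root and between -1 and 1 in leaf.

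The third question was how the organs differed on each solution. Xanthine dehydrogenase and uricase were lower in leaf on both solutions, and allantoate amidohydrolase was lower in leaf on low nitrogen, all as deposited. These comparisons use the same 4 libraries as those above, so their values are not separate evidence. In control plants 5 of 8 genes tested were lower in leaf and 0 higher, where 40.5% of all 14711 genes were lower and 17.6% higher, 58.1% in all. On low nitrogen 6 of 8 were lower and 0 higher, where 31.2% of 15057 genes were lower and 20.1% higher, 51.2% in all. The medians of the 8 log2 ratios were -1.15 in control and -1.19 on low nitrogen, against -0.65 and -0.30 over all genes. With median ratio scaling 3 of 8 were lower in each comparison, where 27.3% and 26.3% of all genes were. The ureide permease copies passed the minimum mean through their root values, which favours a place among the genes lower in leaf. Without them, a choice made after the data were seen, 3 of 6 genes were lower in control, with a median log2 ratio of -0.90, and 5 of 6 on low nitrogen, with a median of -1.19.

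In control plants copy a of the ureide permease was 51.1-fold lower in leaf, with 1 leaf read behind it and a counting interval from 8.93 to 2054. Xanthine dehydrogenase was 6.19-fold lower in control leaf than in control root (counting interval 4.84 to 8.03) and 2.48-fold lower in low nitrogen leaf than in low nitrogen root (2.02 to 3.05). Uricase was 2.56-fold lower in leaf in control (2.15 to 3.06) and 15.1-fold lower on low nitrogen (12.7 to 17.9). Allantoate amidohydrolase was 1.29-fold higher in leaf in control, with a counting interval of 0.887 to 1.86, and 2.34-fold lower in leaf on low nitrogen (1.76 to 3.15). With median ratio scaling the log2 ratio of leaf against root was -0.68 for uricase in control, and -0.91 for allantoate amidohydrolase and -0.97 for xanthine dehydrogenase on low nitrogen, so these calls were lost. The same held for arginase in control (-1.01 as deposited and -0.39 scaled) and allantoinase on low nitrogen (-1.01 and -0.77), while DUR3 on low nitrogen stayed past the threshold (-1.37 and -1.12). As deposited, the leaf libraries were close to each other for both uricase and allantoate amidohydrolase, and the root libraries were not. With median ratio scaling the log2 ratio of low nitrogen leaf against control leaf was -0.50 for uricase and -0.20 for allantoate amidohydrolase.

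**Figure D4:**
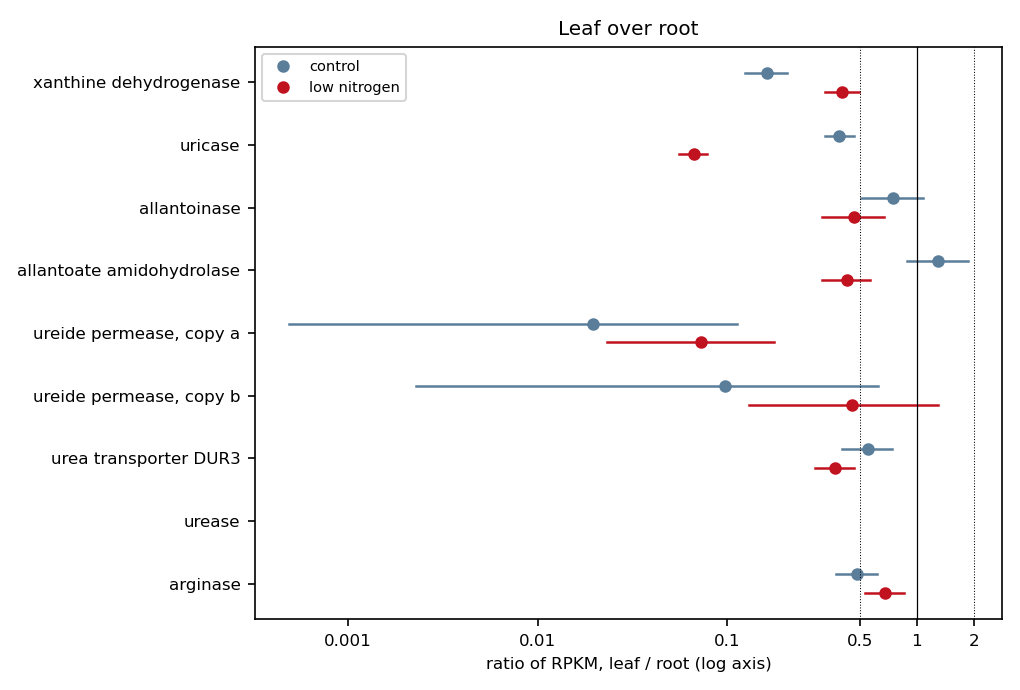
Ratio of RPKM in leaf over root for each gene, on a log axis, in control (blue) and low nitrogen (red) plants. Points are ratios of single libraries, bars are 95% counting intervals, and dotted lines mark 0.5 and 2. Allantoate amidohydrolase lies at 1.29 in control and at 0.428 on low nitrogen, and uricase at 0.390 and 0.0664. Urease was under the minimum mean and is not drawn.

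The order of the 9 levels within a library differed between groups. In control root it began with uricase, arginase (31.6 RPKM) and xanthine dehydrogenase, whose counting intervals overlapped from one to the next, and ended with copy b of the ureide permease and urease. In low nitrogen root uricase was followed at a distance by DUR3 (36.1 RPKM, counting interval 32.5 to 40.1), and from DUR3 down to allantoinase each interval overlapped the one above it. In control leaf arginase (15.3 RPKM) and uricase (14.9 RPKM) led with overlapping intervals. In low nitrogen leaf arginase led, and from uricase (14.1 RPKM) through DUR3, allantoate amidohydrolase and xanthine dehydrogenase to allantoinase each interval overlapped the one above it. The ureide permease copies and urease took the last 3 places in both leaf libraries.

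The other genes of these pathways were taken from 9 lists with 46 homologue IDs, of which 37 were found, on 45 rows. In root 2 of 42 rows tested were higher and 0 lower. In leaf 6 of 40 were higher and 0 lower, and with median ratio scaling 1 was higher and 0 lower in root and 2 were higher and 1 lower in leaf. The background over all genes tested, as deposited, was 6.17% higher and 4.34% lower in root and 13.6% and 3.59% in leaf. With median ratio scaling it was 5.24% higher and 4.51% lower in root and 5.97% and 9.05% in leaf.

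Of the other purine and ureide breakdown genes, 0 of 7 were called in root and 1 of 7 in leaf, with median log2 ratios of -0.11 and 0.04. Allantoin synthase, TTL (AT5G58220), which acts between uricase and allantoinase, was at 59.8 RPKM in control root, 49.8 in low nitrogen root, 10.7 in the control leaf library and 9.53 in the low nitrogen one. Ureidoglycine aminohydrolase, UGLYAH (AT4G17050), which follows allantoate amidohydrolase, was at 31.1, 17.3, 11.8 and 17.3 RPKM in that order, with a root log2 ratio of -0.81. So the steps directly after uricase and after allantoate amidohydrolase did not share their higher root values. The leaf call was URH2 (AT1G05620), a nucleoside hydrolase, at 4.58 RPKM in the control leaf library and 10.4 in the low nitrogen one, with a log2 ratio of 1.03 that fell to 0.65 with median ratio scaling, under the threshold. Guanosine deaminase (AT5G28050), an entry step, had the highest level of this list in control root, 301 RPKM, and was at 280 in low nitrogen root, 111 in the control leaf library and 72.3 in the low nitrogen one. Its leaf log2 ratio was -0.62 as deposited and -1.05, past the threshold, with median ratio scaling.

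Among the other ureide permeases, 1 of 3 rows tested was higher in root and 1 of 2 in leaf, with 0 lower. Both calls were the UPS1 homologue on scaffold02653 (AT2G03590), whose ID comes just before those of the UPS2 copies. It was at 5.93 RPKM in control root, 16.8 in low nitrogen root, 1.82 in the control leaf library and 9.77 in the low nitrogen one. The ratio was 2.82 in root (counting interval 2.09 to 3.86) and 5.37 in leaf (2.93 to 10.6). A further row with the UPS1 ID, on scaffold00793, was at 0.78, 1.67, 0 and 0 RPKM in the same order. Its root log2 ratio of 0.58, from 1 and 2 reads, was under the threshold, and in leaf it was not tested. UPS4 (AT2G03520) was at 4.92, 7.85, 2.03 and 3.80 RPKM, with log2 ratios of 0.58 and 0.66, under the threshold. Permeases of one family may share reads.

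The urease accessory proteins, which insert nickel into urease, were called in neither organ (0 of 3 in each). UREG (AT2G34470) was at 22.8 RPKM in control root, 34.9 in low nitrogen root, 17.2 in the control leaf library and 28.2 in the low nitrogen one. This accessory gene was listed far above urease in every library, with the doubt about the length of urease given above. URED (AT2G35035) was at 36.7, 31.9, 25.8 and 31.1 RPKM and UREF (AT1G21840) at 3.48, 5.80, 2.16 and 2.70.

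Genes of arginine and proline breakdown beside arginase, with the mitochondrial carriers of basic amino acids, had 0 of 5 called in root and 1 of 5 higher in leaf. The leaf call was the carrier MBAC1 (AT2G33820), at 24.4 RPKM in the control leaf library and 56.3 in the low nitrogen one, a ratio of 2.31 (counting interval 1.81 to 2.98), beside 36.96 and 36.7 RPKM in the root libraries. Its leaf log2 ratio was 1.18 as deposited and 0.75, under the threshold, with median ratio scaling. The proline dehydrogenase row (AT5G38710), of the first step of proline breakdown, was at 36.8 RPKM in control root, 39.5 in low nitrogen root, 4.05 in the control leaf library and 4.94 in the low nitrogen one. It was level between solutions within each organ and about as much lower in leaf on either, by log2 ratios of -2.90 and -2.77. P5CDH (AT5G62530), which completes proline breakdown to glutamate, was at 41.4, 29.06, 20.9 and 26.0 RPKM, and ornithine aminotransferase DELTA-OAT (AT5G46180) at 5.82, 5.65, 1.22 and 2.18.

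Arginine synthesis had 0 of 13 rows called in root and 2 of 12 higher in leaf. Argininosuccinate synthase (AT4G24830, scaffold01141) was at 419 RPKM in control root, 332 in low nitrogen root, 134 in the control leaf library and 328 in the low nitrogen one, a leaf ratio of 2.44 (counting interval 2.26 to 2.64). Argininosuccinate lyase (AT5G10920, scaffold01144), the last step to arginine, was at 54.4, 57.7, 7.0 and 17.3 RPKM, a leaf ratio of 2.47 (1.68 to 3.7). The share of 2 in 12 is close to the 13.6% of all genes that were higher in leaf. Both calls were lost with median ratio scaling, where the log2 ratios were 0.84 and 0.80. Other rows of the same steps did not pass as deposited, with leaf log2 ratios of 0.98 for the lyase row on scaffold02995 and 0.54 for a synthase row on scaffold04062.

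Proline synthesis had 0 of 2 rows called in root and 0 of 3 in leaf, with P5CS1 (AT2G39800) at 24.96 RPKM in control root, 33.01 in low nitrogen root, 23.1 in the control leaf library and 22.4 in the low nitrogen one. The proline transporter row PROT1 (AT2G39890) was at 1.38, 2.62, 0.22 and 0.48 RPKM and was not called. Of the genes that lead arginine to polyamines, 0 of 3 were called in either organ. The arginine decarboxylase SPE2 (AT4G34710) was at 186 RPKM in control root, 98.7 in low nitrogen root, 226 in the control leaf library and 219 in the low nitrogen one, with a root log2 ratio of -0.90. Group S1 bZIP factors, which in Arabidopsis act on proline dehydrogenase genes, had 1 of 5 rows higher in root and 1 of 5 in leaf. The root call was a bZIP44 row (AT1G75390, scaffold00542), at 22.5 and 46.1 RPKM in control root and low nitrogen root, a log2 ratio of 1.01 that fell to 0.95 with median ratio scaling, under the threshold, and no counting interval because no whole reads were recovered. The leaf call was another bZIP44 row (scaffold02206) with 2 reads in the control leaf library and 7 in the low nitrogen one, a ratio of 3.75 with a counting interval of 0.714 to 37.0.

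**Figure D5:**
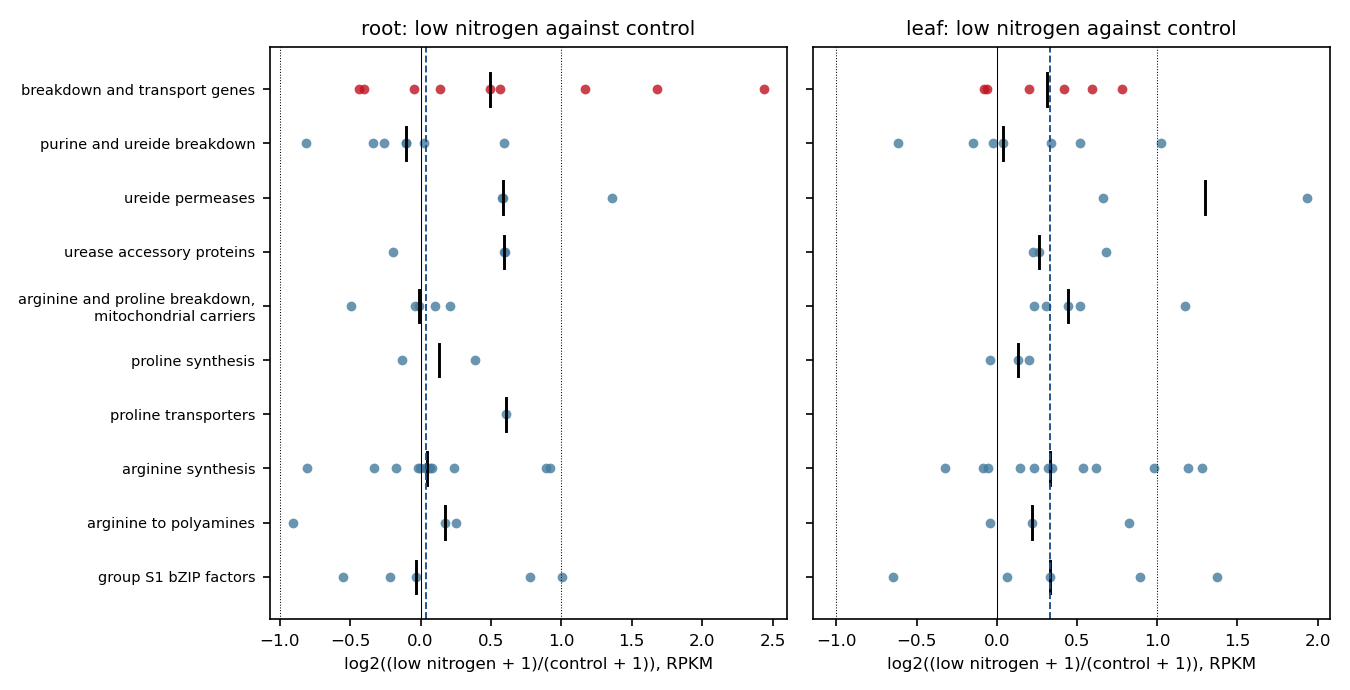
Low nitrogen log2 ratios of the 9 genes described (red) and of the related pathway lists (blue), in root (left) and leaf (right), with a pseudocount of 1 RPKM. Each point is 1 gene, black bars are list medians, dotted lines mark -1 and 1, and the dashed line is the median of all genes tested (0.04 in root and 0.33 in leaf). In root 3 red points and 2 blue points lie at or past 1, and in leaf 0 red and 6 blue points do.

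The rows most alike in pattern were sought by the distance between log2 values centred on their own mean over the 4 libraries, among 4554 rows with a symbol whose mean reached 5 RPKM. Over 4 libraries this is a description. Nearest to uricase was TBL36 (AT3G54260), also on scaffold02653, at a distance of 0.418 and at 6.35 RPKM in control root, 27.02 in low nitrogen root, 1.88 in the control leaf library and 1.76 in the low nitrogen one. RCAR10 (AT2G38310) and CYSC1 (AT3G61440) followed at 0.672 and 0.680. Nearest to copy a of the ureide permease were TET7 (AT4G28050) at 0.125, GC2 (AT1G18190) at 0.130 and PMM (AT2G45790) at 0.242. Uricase and copy a were taken for their low nitrogen log2 ratios, the largest in root and in leaf. The choice was among the genes described whose mean reached 5 RPKM. The leaf ratio of copy a was not tested, and its leaf values rest on 1 and 5 reads.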

How the data were processed

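The authors deposited 1 table of RPKM values for 18665 genes in 4 libraries, plus each gene's length, symbol and homologue ID from Arabidopsis. The submitters' processing notes name Bowtie 0.12.9; build, counter and the handling of reads matching several genes are not stated in the sources used here. None of the IDs or symbols of the 9 genes matched the RefSeq gene table, so names are those of the deposited table.

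RPKM values were used as deposited. Log2 ratios had a pseudocount of 1 RPKM, which understates the change of low genes, and a ratio of exactly 2 on that scale counted as past the threshold. The steps between values gave each library's depth (tolerance 0.00501 RPKM). At the deposited length 2316 rows were whole in every library. For any row the smallest whole reads at a length from 100 bases up were taken, which exist for 83.4% of rows and give the widest intervals; between 1 and 126 lengths gave whole reads for each of the 9 genes, so these reads are not certain. Intervals of ratios are exact conditional (Clopper-Pearson) and of levels exact Poisson, at 95%, and cover counting error only. Numpy 2.4.6, pandas 2.3.3 and scipy 1.17.1 were used. Depths, calls and ratio intervals were tested on data simulated at the deposited lengths. The search over shorter lengths, which gave the reads behind the intervals, was not part of that test. Genes named from the lists are up to 3 per list and comparison with the largest log2 ratio, and further ones placed beside a named step were picked with their values in view. The genes, lists and thresholds were chosen with earlier results of these data known.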

Additional observations from a re-analysis of the deposited data

Results flagged for a closer look

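Of the 6 genes tested in both organs, 4 had low nitrogen log2 ratios of opposite sign in root and leaf, in single libraries and untested. Over all 12116 genes tested in both organs the share with opposite signs was 44.2%. With median ratio scaling 5 of the 6 genes had opposite signs, where the share over all 12126 genes was 44.3%. Allantoate amidohydrolase joined at a leaf log2 ratio of -0.20. Arginase was still counted at a scaled leaf log2 ratio of 0.005, too small for its sign to tell anything. The leaf ratio minus the root ratio was -2.52 for uricase (2.44 in root, -0.08 in leaf) and 1.18 for xanthine dehydrogenase (-0.40 and 0.78). It was -0.63 for allantoinase (0.57 and -0.06) and 0.47 for arginase (-0.05 and 0.42). As deposited, the counting interval of the ratio excluded 1 in both organs for xanthine dehydrogenase. It did so in root for uricase and allantoinase, and in leaf for arginase. In leaf these intervals take in the upward shift of genes in general, 0.33 in log2 terms. With that shift subtracted, the leaf log2 ratio was 0.09 for arginase and 0.45 for xanthine dehydrogenase.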

How the results depend on the processing

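Under 8 alternative settings and 1 more chosen after the data were seen, which leaves out the ureide permease rows, 3 genes were higher and 0 lower in root. The filter settings, the summed rows and the rows left out could not change these root counts, since they touch only rows not called. In leaf 0 were called, except that 1 was higher when rows with 1 homologue ID were summed, the ureide permease pair, whose sum reached the minimum mean through low nitrogen leaf alone. Uricase kept a root log2 ratio between 2.33 and 2.47, allantoate amidohydrolase between 1.31 and 1.80 and DUR3 between 1.01 and 1.22. The counts lower in leaf than in root were 5 of 8 in control and 6 of 8 on low nitrogen. They were 3 and 3 of 8 with a pseudocount of 5 RPKM and with median ratio scaling. With a pseudocount of 0.1 RPKM and with recovered reads they were 5 and 7 of 8. Settings that changed the number tested gave 3 and 5 of 6 without the ureide permease rows and 6 and 6 of 9 with no filter. A mean of at least 5 RPKM and summed rows each gave 4 and 6 of 7. Shares over all genes were not taken for the pseudocount, filter, summed row and recovered read settings, so these counts describe the set only. The count with a higher ratio in leaf than in root (1 of 8) was 3 of 8 with a pseudocount of 0.1 RPKM and with recovered reads. It was 0 of 8 with a pseudocount of 5 RPKM and with median ratio scaling. The low leaf reads of the ureide permease copies enter these counts. The alternatives gave 299 single ratios of these genes, of which 11 moved. Of those, 9 moved with median ratio scaling and 2 with a pseudocount of 5 RPKM, and no called ratio changed sign. A ratio counts as moved when its log2 change exceeds the distance from the middle of its log2 counting interval to an end. For differences between organs the distances in root and leaf were combined. The settings with no filter, a mean of at least 5 RPKM and summed rows change only which rows are tested or summed. Their 39, 34 and 31 ratios could not move. No paired analysis was possible because each group has 1 library and the result comes from no test; for the same reason no library could be left out. With 1 library per group, plant-to-plant variation is unknown.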
